A study of Mus musculus with 4 samples.

Results

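Genes that hold or mark the undifferentiated state of mouse embryonic stem cells were followed through a deposited table of regions of N6-methyladenosine (m6A) in mRNA. They were Pou5f1, Sall4, Utf1, Lin28a, Trim71, L1td1 and Rif1, taken by their gene symbol with every region listed under them. That gave 16 regions for 7 genes, out of 6697 distinct regions under 3882 genes. The double knockout (DKO) group was E14K cells lacking both Gsk-3 kinases, and it was set against wild-type (WT) E14K cells. Both lines grew on gelatin without feeder cells, and both went without leukaemia inhibitory factor (LIF) for 14 days before RNA was taken. From each line there was 1 library of poly(A)-selected RNA caught by an m6A antibody. An input library of each line is among the samples, but 0 columns of the table held input counts, so input was not analysed here. The sources used here do not give whether the DKO line was 1 clone.

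m6A is laid down on mRNA by a methyltransferase complex and read by proteins that, among other effects, shorten the life of the transcript. In embryonic stem cells it is known for marking mRNAs of pluripotency regulators. Gsk-3 holds back Wnt signalling by marking β-catenin for destruction, and its inhibition helps mouse embryonic stem cells to self-renew. Among the genes, Pou5f1 encodes the POU-domain transcription factor Oct4 at the centre of the network, and Sall4 a zinc finger transcription factor that binds with it. Utf1 encodes a chromatin-bound factor of undifferentiated cells. Lin28a encodes an RNA-binding protein that blocks maturation of the microRNA let-7, and Trim71, also called Lin41, is a target of let-7 whose product binds and silences mRNAs. L1td1 encodes an RNA-binding protein that descends from a LINE-1 retrotransposon. Rif1 encodes a protein of replication timing and DNA repair that stem cells express highly.

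Counts are reads per region as deposited. Folds are the WT count over the DKO count after a constant of 0.825 that the authors' own ratio carries, and they are written as folds lower in DKO cells. Where DKO reads were 0, the fold is a bound set at a floor of 3 DKO reads and written as "at least". Such bounds leave out the error of the WT count and are less cautious than the intervals, since the interval of 0 reads reaches 3.69. Intervals are exact at 95% and cover counting error only. With 1 library per genotype there was no spread between replicates and no test, so each comparison is between these libraries. The column headers give the genotype only, so that the counts are taken to be those of the antibody libraries, and scaling or correction for input is not stated. Coordinates are as deposited. The submitters' processing notes name mm9, but the positions match GRCm38: 99.9% of the rows whose gene was found in a RefSeq table of that build lay within 5000 bases of it.

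Every one of the 16 regions had fewer reads in the DKO library than in the WT library. DKO counts ran from 0 to 88 with a median of 5, and WT counts ran from 19 to 681 with a median of 53.5. The counting intervals of the DKO and WT counts did not overlap in 16 of 16 regions, nor in 6696 of all 6697 listed regions (100%). This direction is shared by the whole table, in which 0 regions had a DKO count at or above the WT count. It thus says nothing particular about these genes. Among listed regions with DKO reads, the smallest fold was 2.91. The rule by which regions entered the list is not given in the sources used here. Whether regions were listed for having fewer DKO reads was not tested. If they were, the direction and the separated intervals would be set by entry. In bulk RNA, fewer cells of a type and less RNA or less methylation per cell cannot be told apart. With 1 library per genotype, neither can a difference in library depth or antibody yield.

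**Figure D1:**
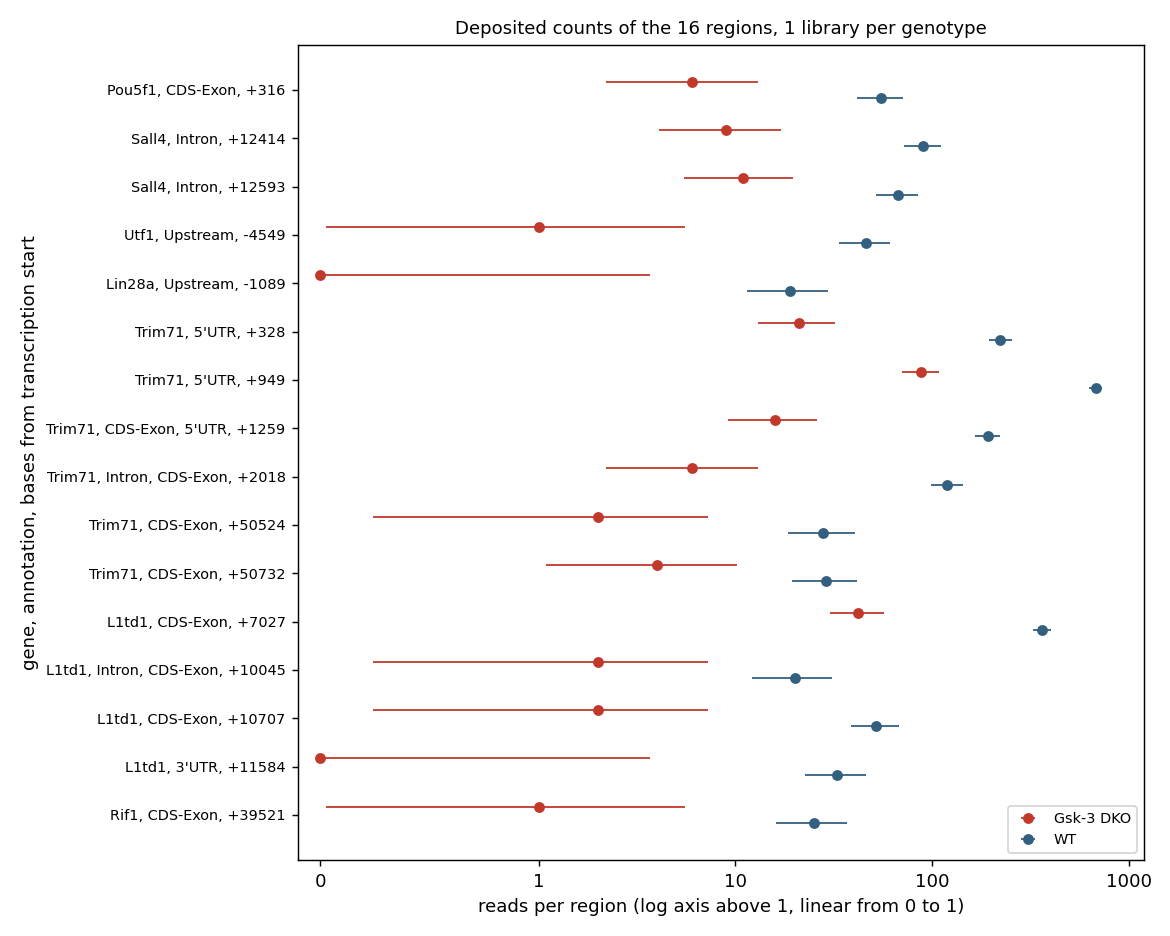
Reads per region on a log axis (linear from 0 to 1) in the Gsk-3 DKO library (red, upper of each pair) and the WT library (blue, lower), with exact 95% Poisson intervals, 1 library each. Each DKO count lies below its WT count, from 0 against 19 reads near Lin28a to 88 against 681 reads in the 5'UTR of Trim71.

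The amount of the difference was smaller over these regions than over the rest of the table. Summed over the 16 regions the DKO library had 211 reads and the WT library 2043, which is 7.99-fold lower in DKO cells (6.93 to 9.25). The other 6681 regions summed to 26861 DKO reads and 571928 WT reads, 17.6-fold lower (17.3 to 17.8). Over exonic regions alone the contrast was smaller. The 12 exonic regions of these genes were 7.90-fold lower (6.80 to 9.23), and all 3732 listed exonic regions 14.8-fold (14.6 to 15.0). Trim71 gave 62.3% of the WT reads of the 16 regions. Without it the remaining 10 regions had 74 DKO reads and 770 WT reads, 8.58-fold lower (6.75 to 11.05).

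Counted by region, the comparison with the table depended on the measure and the scaling. The median log2 of DKO over WT was -3.17 in the 16 regions, against -4.93 in all listed regions, with 0.5 added to both counts. With 0.25 added the medians were -3.20 and -5.74, and with 2 added they were -2.84 and -3.42. The distance between them thus moved with the added constant, since 50.5% of all regions had no DKO reads. Regions at least 10-fold lower in DKO cells were 5 of 16, where 52.5% of all listed regions passed that mark, and at 4-fold all 16 passed, as did 99.9% of the table. Without the authors' constant the 10-fold count was 10 of 16, a share near the 64.3% of all regions. With a median-ratio factor it was 0 of 16, against 0.508%. DKO reads were absent from 2 of 16 regions, against 50.5% of all regions. Among the 12 exonic regions, 4 were at least 10-fold lower and 1 had no DKO reads, against 56.6% and 36.1% of all exonic regions. The share without DKO reads moved with depth. Among regions with 15 to 29 WT reads 75.7% had no DKO reads, against 9.47% of those with 240 or more.

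Set beside regions of like depth, the deeper regions of these genes all had the smaller folds. The 7 regions with 60 or more WT reads lay in Trim71, Sall4 and L1td1, with folds from 5.02 to 16.5. Each was below the median fold of the listed regions in its range of WT counts, which was 18.8 at 60 to 119 reads, 19.0 at 120 to 239 and 16.1 at 240 or more. Regions with 0 DKO reads enter those medians at their bounds, and the 7 regions all had DKO reads. The 9 shallower regions are not placed in this way, because 75.7% of listed regions with 15 to 29 WT reads and 52.8% of those with 30 to 59 had no DKO reads and 2 of the 9 are bounds themselves. Of those 9 shallow regions, 7 rest on 0 to 2 DKO reads.

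**Figure D2:**
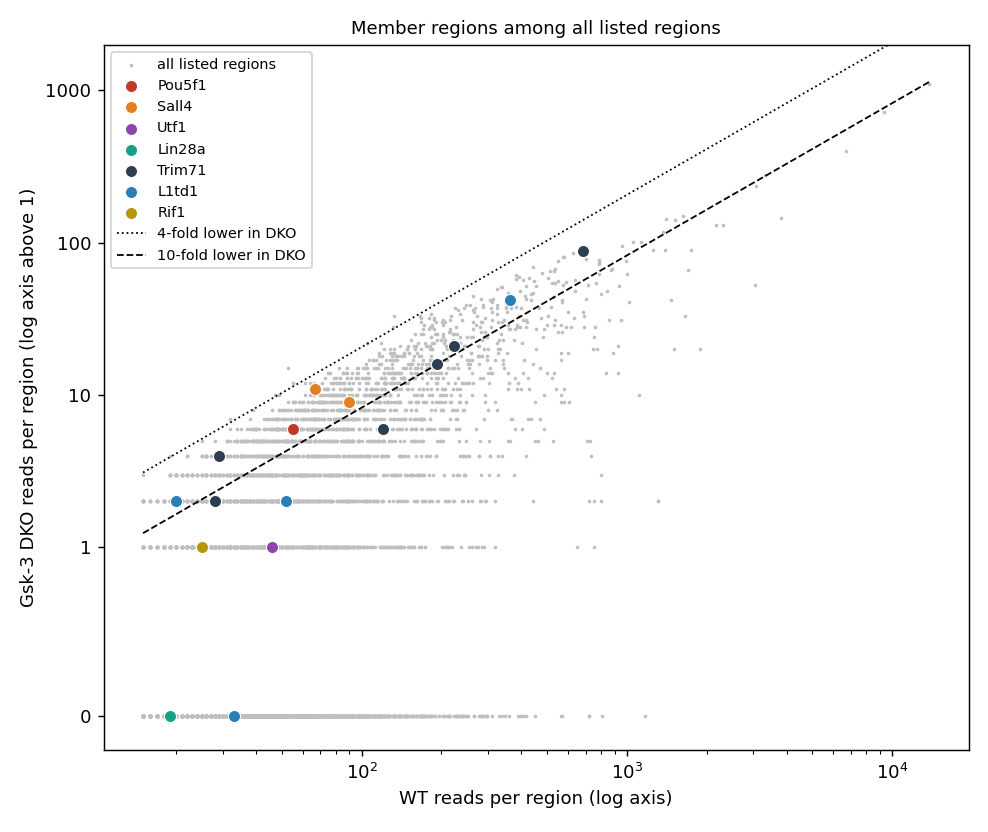
DKO reads (vertical, log axis above 1) against WT reads (horizontal, log axis) for all 6697 listed regions (grey) and the 16 regions of the 7 genes (coloured). The dotted and dashed lines mark 4-fold and 10-fold lower counts in DKO cells. The regions of Trim71, Sall4 and L1td1 with 60 or more WT reads lie between 5.02-fold and 16.5-fold.

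Pou5f1, the master regulator of the group, had 1 region, in a coding exon on chromosome 17 (35506259 to 35506438), centred 316 bases from the transcription start. The region held 6 reads in DKO cells and 55 reads in WT cells, 7.56-fold lower (3.26 to 21.5). Its fold is not placed among listed regions of 30 to 59 WT reads, because 52.8% of those had no DKO reads and enter at bounds. The same region is also listed under the predicted gene Gm19553, and without strand the reads of the overlapping genes cannot be told apart. The RefSeq table also names 7 pseudogenes of Pou5f1, so its count is uncertain where reads could be shared with copies.

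Sall4, the partner of Oct4, had 2 regions on chromosome 2 that are 5 bases apart, and both are annotated as intronic. The one nearer the start (168754709 to 168754865) held 9 DKO reads and 90 WT reads, 8.25-fold lower (4.16 to 18.6). Its neighbour (168754514 to 168754703) held 11 DKO reads and 67 WT reads, 5.02-fold lower (2.64 to 10.5). That second value was the smallest fold of the 16 regions, and only 0.99% of listed regions with 60 to 119 WT reads had a smaller one. The folds of the pair lie within each other's counting intervals. Summed, Sall4 had 20 DKO reads and 157 WT reads, 6.47-fold lower (4.05 to 10.9). The table annotates each gene by 1 transcript and RefSeq lists 3 curated transcripts for Sall4, so whether the regions are exonic in another was not tested.

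The regions given to Utf1 and Lin28a lie outside those genes. The Utf1 region on chromosome 7 (139939209 to 139939405) is centred 4549 bases upstream of the start and held 1 DKO read and 46 WT reads, 37.9-fold lower (6.48 to 1531). It is listed a second time as intronic in Kndc1, the neighbouring gene, so it describes that intron as much as Utf1. The Lin28a region on chromosome 4 (134019826 to 134019985) is centred 1089 bases upstream. It held 0 DKO reads and 19 WT reads, at least 5.22-fold lower in DKO cells. No region inside the transcribed span of either gene is in the table, which leaves 5 genes and 14 regions that lie inside their own gene. Over those 14 the summed fold was 7.77 (6.74 to 8.999), with 210 DKO reads and 1978 WT reads.

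Trim71 carried the most reads, with 6 regions on chromosome 9 that summed to 137 DKO reads and 1273 WT reads, 7.66-fold lower (6.42 to 9.21). It ranked 12 of 3882 genes by summed DKO reads and 30 by summed WT reads, and 76 genes had 6 or more regions. Reads per base peaked in the 5'UTR in both libraries. The densest region (114563251 to 114563589), centred 949 bases from the start, held 88 DKO reads and 681 WT reads. It was 6.38-fold lower in DKO cells (5.11 to 8.06), at 0.260 DKO reads and 2.01 WT reads per base. Among 404 regions of the table that overlap a 5'UTR, this one ranked 1 by WT reads per base and 2 by DKO reads.

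The flanks of that summit were lower in both genotypes. Toward the start, the other 5'UTR region (114563951 to 114564131) had 21 DKO reads and 223 WT reads, 8.76-fold lower (5.59 to 14.4). Across the start of the coding sequence (114563001 to 114563219) there were 16 DKO reads and 192 WT reads, 9.90-fold lower (5.94 to 17.7). At the border of the next coding exon part and its intron (114562199 to 114562504) there were 6 DKO reads and 120 WT reads, 16.5-fold lower (7.36 to 45.8). This last fold was the largest of the gene, and its interval overlaps those of the other regions.

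Far down the gene, 2 regions of a coding exon lie 47 bases apart, past an unlisted stretch of 48274 bases. The region at 114513766 to 114513924 had 2 DKO reads and 28 WT reads, 11.5-fold lower (2.91 to 100.03). The region at 114513556 to 114513718 had 4 DKO reads and 29 WT reads, 5.98-fold lower (2.10 to 23.4). Grouped by annotation, the 3 regions that touch the 5'UTR summed to 125 DKO reads and 1096 WT reads, 7.23-fold lower (6.01 to 8.77). The 3 coding regions without UTR summed to 12 DKO reads and 177 WT reads, 12.2-fold lower (6.79 to 24.0). The intervals overlap, and a difference between the parts of the transcript was not tested. The 5'UTR part held 86.1% of the listed WT reads of Trim71.

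**Figure D3:**
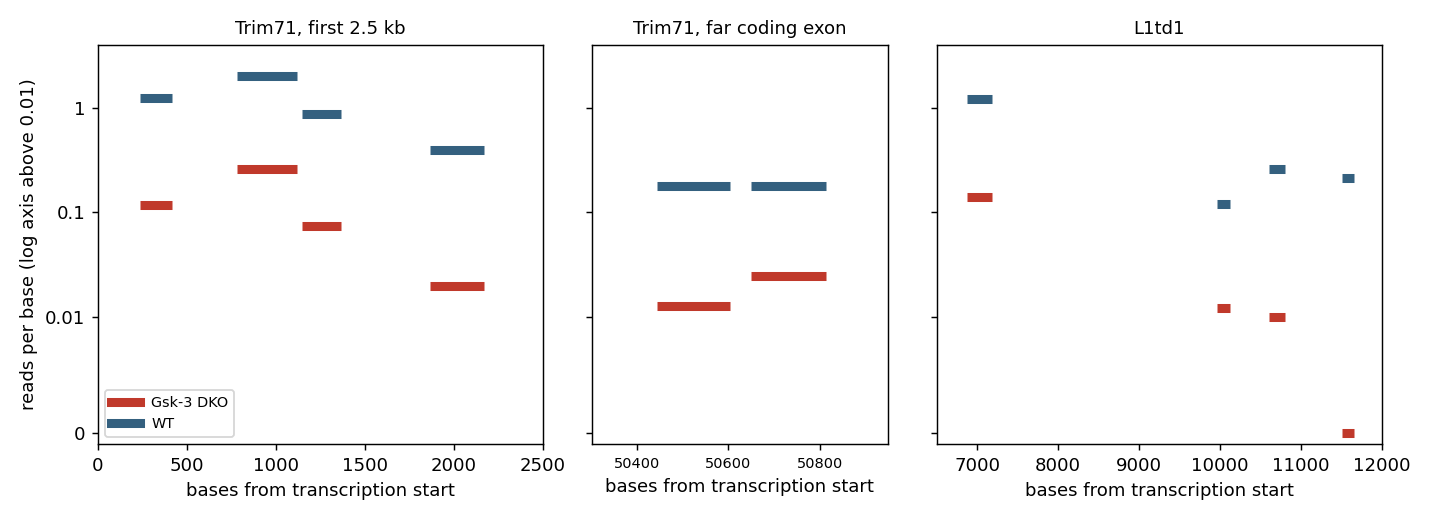
Reads per base (log axis above 0.01) of the listed regions of Trim71 (left and middle) and L1td1 (right) by distance from the transcription start, in DKO cells (red) and WT cells (blue), 1 library each. Bars span each region's length. The summit of Trim71 lies 949 bases from its start at 0.260 DKO and 2.01 WT reads per base, and that of L1td1 at 7027 bases at 0.139 DKO and 1.202 WT reads per base.

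L1td1, the domesticated LINE-1 gene, came next with 4 regions on chromosome 4 and a sum of 46 DKO reads and 468 WT reads, 8.39-fold lower (6.19 to 11.6). It ranked 85 of 3882 genes by summed DKO reads and 160 by summed WT reads. Most of these reads lay in a coding exon (98733631 to 98733932), with 42 in DKO cells and 363 in WT cells, 7.13-fold lower (5.17 to 10.1). Of listed regions with 240 or more WT reads, 11.7% had a smaller fold.

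The remaining regions of L1td1 were shallow. A region over an exon and intron border (98736716 to 98736882) had 2 DKO reads and 20 WT reads, 8.25-fold lower (2.004 to 72.8). The next coding region (98737362 to 98737561) had 2 DKO reads and 52 WT reads, 21.4-fold lower (5.65 to 182). In the 3'UTR (98738261 to 98738416) there were 0 DKO reads and 33 WT reads, at least 9.07-fold lower. The intervals of the first 2 overlap that of the deep coding region. The bound in the 3'UTR lies inside that interval, but a bound sets no upper limit to the fold. Whether the folds differ toward the 3' end was not tested.

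Rif1, the replication timing factor, had 1 shallow region in a coding exon on chromosome 2 (52112252 to 52112465). It held 1 DKO read and 25 WT reads, 20.6-fold lower (3.38 to 847). With 1 DKO read the upper limit is hardly bounded, and the lower limit lies below the folds of all the other regions.

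**Figure D4:**
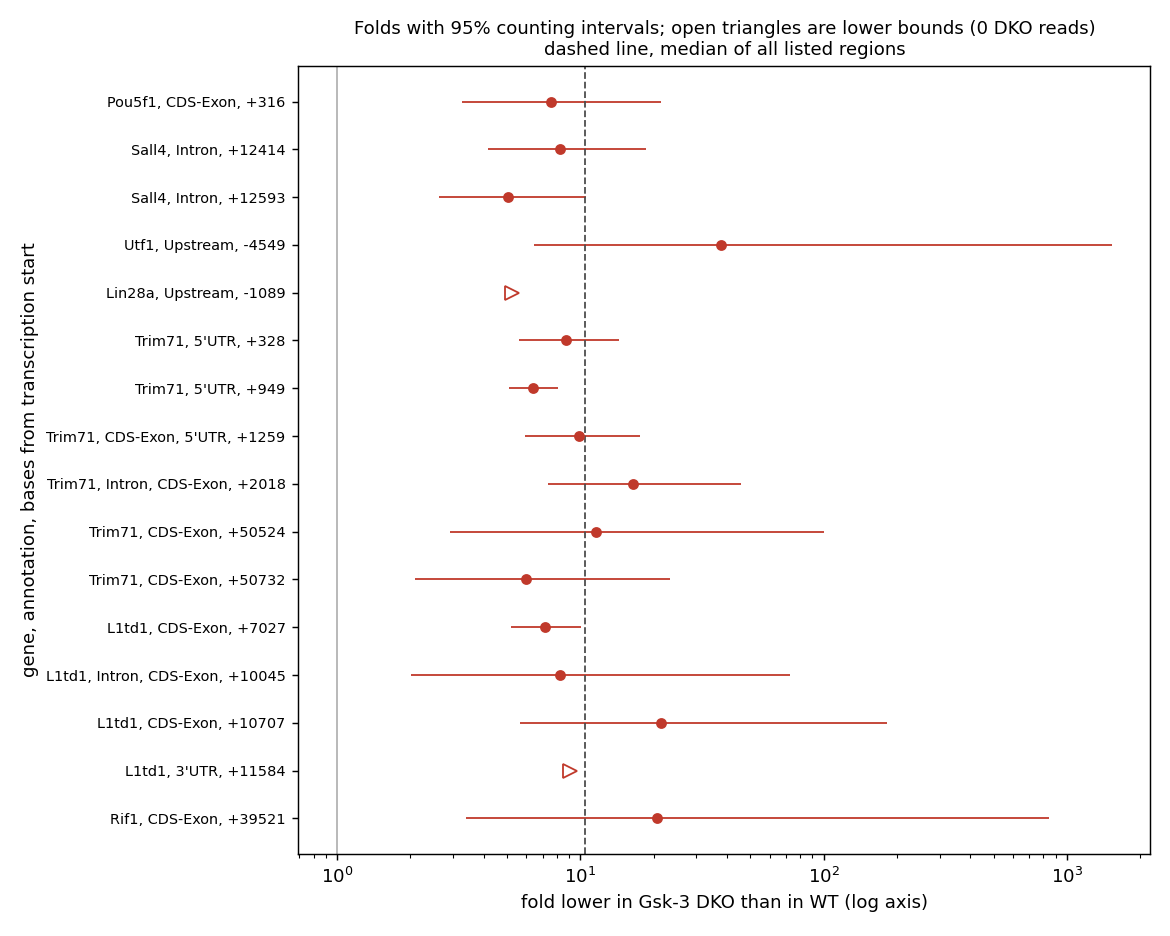
Fold by which the DKO count was lower than the WT count (log axis) for the 16 regions, with exact 95% intervals from the counts of 1 library each. Open triangles mark lower bounds where DKO reads were 0, and the dashed line is the median of all listed regions, 10.4-fold. The narrowest intervals, those of the deepest regions of Trim71 (5.11 to 8.06) and L1td1 (5.17 to 10.1), end left of that line.

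Ordered by their summed regions, the folds of the 6 genes with DKO reads were 6.47 for Sall4, 7.56 for Pou5f1, 7.66 for Trim71, 8.39 for L1td1, 20.6 for Rif1 and 37.9 for Utf1. Lin28a, at 5.22 or more, has no place in this order. Of the 6 genes, 4 lay below the median of all gene sums, 12.3-fold with zeros at their bound. The counting intervals of neighbours in this order overlapped. The 2 highest values rest on 1 DKO read each, and that of Utf1 comes from a region outside the gene, also listed in an intron of Kndc1. The Lin28a region likewise lies outside its gene.

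Other genes of the pluripotency network came from lists chosen for their function, using 1 region per gene, that with the highest mean count. Over all 3882 genes the median log2 was -4.85, 46.2% of genes had no DKO reads and 55.6% were at least 10-fold lower. The 7 members had a median of -2.97, with 1 gene at 0 DKO reads and 2 at least 10-fold lower. Among them the regions of Utf1 and Lin28a lie outside those genes.

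Of 29 core and naive pluripotency genes 6 were listed, and Nanog, Sox2, Klf4 and Zfp42 were among those not listed. The nuclear receptor gene Esrrb had 7 DKO reads and 146 WT reads in an intron, 17.2-fold lower (8.14 to 43.5). Nr5a2, another nuclear receptor gene, had 0 DKO reads and 85 WT reads in an intron, at least 23.4-fold lower. The zinc finger gene Zscan10 had 0 DKO reads and 26 WT reads, at least 7.15-fold lower. Introns thus hold the deepest listed region of Esrrb and the only listed region of Nr5a2. Zfp281, a zinc finger repressor, had 11 DKO reads and 134 WT reads (10.05-fold lower). Fgfr1, a receptor of fibroblast growth factors, had 3 DKO reads and 29 WT reads (7.97-fold lower). The median log2 of the list was -3.64, with 2 of 6 genes at 0 DKO reads and 3 at least 10-fold lower.

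Of 10 genes of the primed or formative state 3 were listed, and all 3 had 0 DKO reads. The POU factor gene Pou3f1 had 92 WT reads in a coding exon (at least 25.3-fold lower in DKO cells) and the growth factor gene Fgf5 had 49 in its 3'UTR (at least 13.5-fold). Dnmt3l, a cofactor of DNA methylation, had 25 in an upstream region (at least 6.87-fold). The median log2 was -6.35, on 3 genes.

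In the let-7 pathway around Lin28a and Trim71, 8 of 18 genes were listed and Lin28b was not. The processing enzyme gene Dicer1 had 11 DKO reads and 74 WT reads, 5.55-fold lower (2.93 to 11.6), and the Drosha partner gene Dgcr8 had 1 DKO read and 64 WT reads, 52.8-fold lower (9.14 to 2117). Dis3l2, the nuclease that degrades let-7 precursors, had 0 DKO reads and 140 WT reads in an intron, at least 38.5-fold lower. Of the let-7 targets, Hmga2 had 3 DKO reads and 20 WT reads (5.499-fold) and Igf2bp1 had 9 DKO reads and 117 WT reads (10.7-fold). Enzymes of the pathway and its targets thus lay on both sides of 10-fold. Ago2, the slicer of the silencing complex, listed as Eif2c2, had 4 DKO reads and 67 WT reads (13.8-fold). Trim32, a relative of Trim71, had 3 DKO reads and 37 WT reads (10.2-fold). The cleavage factor gene Cpsf4 had 0 DKO reads and 51 WT reads (at least 14.02-fold). The median log2 was -3.49, with 2 of 8 at 0 DKO reads and 6 at least 10-fold lower.

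Among Sall relatives and subunits of the NuRD deacetylase, which Sall4 recruits, 6 of 15 were listed. Gatad2a had the most reads, 25 in DKO cells and 222 in WT cells, 7.32-fold lower (4.83 to 11.6). Sall1 had 5 DKO reads and 51 WT reads (8.41-fold), and Sall2 had 0 DKO reads and 55 WT reads (at least 15.1-fold). Of NuRD subunits besides Gatad2a, Mbd3 had 3 DKO reads and 46 WT reads (12.6-fold), Mta3 had 1 DKO read and 18 WT reads (14.8-fold), and Mta2 had 0 DKO reads and 26 WT reads (at least 7.15-fold). The median log2 was -3.40, with 2 of 6 at 0 DKO reads and 3 at least 10-fold lower.

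For Rif1 partners and replication genes, 4 of 18 were listed. Trp53bp1, which brings Rif1 to broken DNA, had 3 DKO reads and 89 WT reads, 24.5-fold lower (8.11 to 121). The helicase subunit gene Mcm6 had 5 DKO reads and 67 WT reads (11.1-fold). Of its fellow subunits, Mcm3 had 0 DKO reads and 25 WT reads (at least 6.87-fold) and Mcm4 had 0 DKO reads and 19 WT reads (at least 5.22-fold). The median log2 was -4.70, with 2 of 4 at 0 DKO reads and 2 at least 10-fold lower.

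Markers of the labelled cell type were listed in part. All sums and medians of markers use 1 region per gene, that with the highest mean count, and are not totals over every region. Of 12 markers of embryonic stem cells 6 were in the table, 5 of them members and the other Esrrb. Their median log2 was -3.49, with sums of 65 DKO reads and 719 WT reads. The regions of Utf1 and Lin28a, which are included, lie outside those genes. Nanog, Sox2, Zfp42, Klf4, Dppa5a and Tdgf1 had no listed region, which says nothing about their mRNA level. Markers of other lineages were listed beside them. Neural markers (5 of 9) summed to 14 DKO reads and 2566 WT reads, mesoderm markers (6 of 10) to 1 DKO read and 404 WT reads, and endoderm markers (8 of 11) to 166 DKO reads and 1480 WT reads. Trophoblast markers (5 of 7) summed to 3 DKO reads and 156 WT reads, and of 5 germ line markers Prdm1 was listed, with 0 DKO reads and 32 WT reads. Their median log2 values were -6.52 (neural), -6.72 (mesoderm), -2.86 (endoderm), -5.28 (trophoblast) and -5.74 (Prdm1). The part of such cells in the counts of the pluripotency genes was not tested.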

How the data were processed

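The data were 1 table of m6A regions with gene annotation. Its counts, whole reads per region for WT and DKO cells, were used as deposited, and the file headers do not state a normalization. The deposited ratio is the WT count over the DKO count times 0.825 in every row with DKO reads and is blank elsewhere. The deposited signal, read density, is the WT count over the region's length. Bowtie2, DESeq and mm9 are named, without role, in the submitters' processing notes, and no source used here gives the peak caller or the rule of entry. Columns were matched to the m6A libraries by genotype, as the libraries titled with the assay.

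Each of the 7562 rows' 6697 distinct regions was used once. Log2 values of regions, and medians over regions or genes, carry a pseudocount of 0.5 on both counts, while folds and the log2 of gene sums carry none. A DKO count of 0 was set at a floor of 3 reads for folds, per region or gene sum. Poisson intervals were used for counts and Clopper-Pearson intervals for ratios, all at 95%. No molecular identifiers are named, so reads may be PCR copies, and intervals and floors cover counting error alone. Region totals are not library depth, which the table does not hold. The calculations were tested on simulated counts (Python 3.11.15, pandas 2.3.3, SciPy 1.17.1). All 7 symbols were found in the RefSeq table of GRCm38.p6. Members and lists were chosen with earlier results of these data known. All 7 members are named, with the listed genes of each list except 1 that is not reported here. Alternatives were other pseudocounts, scalings and floors, subsets of regions and leaving out each gene.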

Additional observations from a re-analysis of the deposited data

How the results depend on the processing

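The median log2 of DKO over WT of the 16 regions (-3.17) ran from -3.44 to -2.84 with other pseudocounts, without the authors' constant and in deeper or exonic regions. With every row as deposited it was unchanged, and on leaving out any 1 gene it ran from -3.39 to -3.10. For medians, counting error was taken from the interval of the middle region or regions. Here 1 of these held 2 DKO reads, so that interval is wide and staying within it shows little. A median-ratio factor, taken over listed regions with DKO reads only, adds 3.77 to every log2 value by construction. It made that median 0.60 and that of all regions -1.17, and put 10 of the 16 regions and 1935 of all 6697 above 0. With it the gene sums were 0.85 for Pou5f1, 1.07 for Sall4, 0.83 for Trim71, 0.70 for L1td1, -0.60 for Rif1 and -1.48 for Utf1. Lin28a, with 0 DKO reads, was at most 1.38 with 0 at the floor and -1.24 with the pseudocount, so its sign is not set. With the factor the Trim71 region at 50524 bases was 0.53, and the lists were 0.13 (core and naive), -2.58 (primed), 0.28 (let-7), 0.37 (Sall and NuRD) and -0.94 (Rif1 partners). The count of regions at least 10-fold lower (5) was 10 without the constant (64.3% of all regions) and 0 with the factor (0.508%). With a floor of 1 read it was 7 of 16, against 82.5% of all regions. It was 3 of 10 in deeper regions (75.2%) and 3 without Trim71. On leaving out another gene it ran from 4 to 5. Regions without DKO reads (2) were 0 in deeper regions, 1 in exonic regions, 1 without Lin28a and 1 without L1td1, where fewer regions were counted. The log2 of summed Trim71 (-2.94) was -3.22 without the constant and -2.67 in its deepest region. The summed fold of the 16 regions (7.99), varied after seeing the data, ran from 7.84 to 8.58 on leaving out any 1 gene. In all, 125 of 164 alternatives stayed the same. That means within counting error for folds and log2 values of regions and genes, but within a set ratio of the main value for counts of regions. For medians it means within the interval of the middle region or regions, which can be wide. No paired analysis was possible because each genotype has 1 library. Depth limits most regions: 10 of 16 had 6 or fewer DKO reads.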
